A study of Mus musculus with 5 samples.

Results

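The extracellular matrix genes described here encode collagen chains, laminin chains and nidogens, Adamts proteases, thrombospondins and tenascins, fibulins, fibrillins, fibronectin, the brain proteoglycans of the lectican family with their link proteins, small leucine-rich proteoglycans and Sparc. They were taken by symbol from the deposited table of messenger RNA levels: families by their symbol stems (Col, Lam, Adamts, Thbs, Tnc, Tnn, Tnr, Fbln, Fbn, Nid and Hapln) and 10 further genes by name. This gave 103 genes with 121 transcripts, of 20340 coding genes in the table. Col4a3bp was taken by its letters alone and encodes a ceramide transfer protein and not a matrix protein. Levels are in FPKM, which scale fragments to the length of the transcript and the size of the library, and 86 of the 103 genes reached 1 FPKM in at least 1 library.

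The tissues were cut from brains of adult male mice of the C57BL/6 strain, wild type throughout, with no treatment in the labels. The regions were the subventricular zone (SVZ), dentate gyrus (DG) and olfactory bulb (OB), where neurons are made or arrive in adult life, and the striatum, STR, as the region without neurogenesis. There were 2 SVZ samples, called biological replicates in the labels, and 1 sample of each other region. Nothing in the labels says how many animals made up a sample.

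Matrix proteins form the space between cells. Collagen IV, laminins and nidogens build the basement membranes of brain vessels and of the pial surface, and in the SVZ laminin-rich basement membrane structures called fractones reach from vessels towards the ependyma, the ciliated lining of the ventricle. Fibrillar collagens are sparse in brain tissue itself and abundant in the meninges. Between neurons and glia the matrix is built mainly from hyaluronan, lecticans, link proteins and tenascin-R, which condense around some neurons as perineuronal nets.

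The regions carried their usual markers, with 1 overlap that touches the comparison of SVZ with STR. The granule cell gene Prox1 was at 89.5 FPKM in DG and at 0.925 to 5.39 in the other libraries. Omp of olfactory sensory axons was at 187 FPKM in OB and at most at 0.567 elsewhere. Foxj1 of ependymal cells was at 61 and 23.5 FPKM in the SVZ pair and at 1.95 to 7.49 elsewhere. Ppp1r1b of striatal projection neurons was at 1627 and 765 FPKM in the SVZ pair and at 940 in STR, so STR lay between them. The libraries also differed in ways the regions do not give. Gapdh reached 32.4 FPKM in SVZ sample 2 and 39.5 in STR, against 414 to 563 in SVZ sample 1, OB and DG, and DG had 16725 transcripts listed at 0 against 9564 to 10807 elsewhere. Differences are therefore also given by library set: STR against SVZ sample 2, and OB and DG against SVZ sample 1, with OB and DG set against STR through the SVZ sample of each set. The labels give no such sets, which were drawn from values such as those of Gapdh. OB and DG were placed in the same set, so their direct difference is also the value by set. They still differed in transcripts listed at 0, and an effect of the library between them was not tested.

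Differences are on the log2(FPKM + 1) scale, which understates folds of low genes, with limma standard errors (SE) that rest on n = 2 libraries for SVZ and n = 1 for every other region. The error of OB, DG and STR is assumed to equal that of the SVZ pair. In limma, called features at an adjusted p under 0.05 made up 0% of the 14878 to 15941 tested in each pair of regions, and the smallest adjusted p of a matrix gene was 0.14, in SVZ against OB. Unadjusted p-values rest on the spread of the same SVZ pair and are not counted here. Genes were therefore counted by size, by a difference of at least 2 log2 units (4-fold for well expressed genes), and only if a library of either region reached 1 FPKM. Such counts describe these libraries and are not calls of a test. In bulk tissue, fewer cells of a type and less RNA per cell cannot be told apart.

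Matrix gene levels were highest in the OB library for most genes. Of the 103 genes, 79 were at 1 FPKM or more in OB, 64 and 49 in SVZ samples 1 and 2, 56 in DG and 38 in STR. The median over all 103 was 4.23 FPKM in OB, 1.64 and 0.937 in the SVZ samples, 1.37 in DG and 0.659 in STR. OB was the highest region for 57 of the 86 detected genes, or 66.3%, against 48.2% of 14029 detected coding genes. DG was highest for 14, SVZ for 10 and STR for 5. The 5 highest in STR included Col4a3bp, which lay between 19.7 FPKM in DG and 30.9 in SVZ sample 2.

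**Figure D1:**
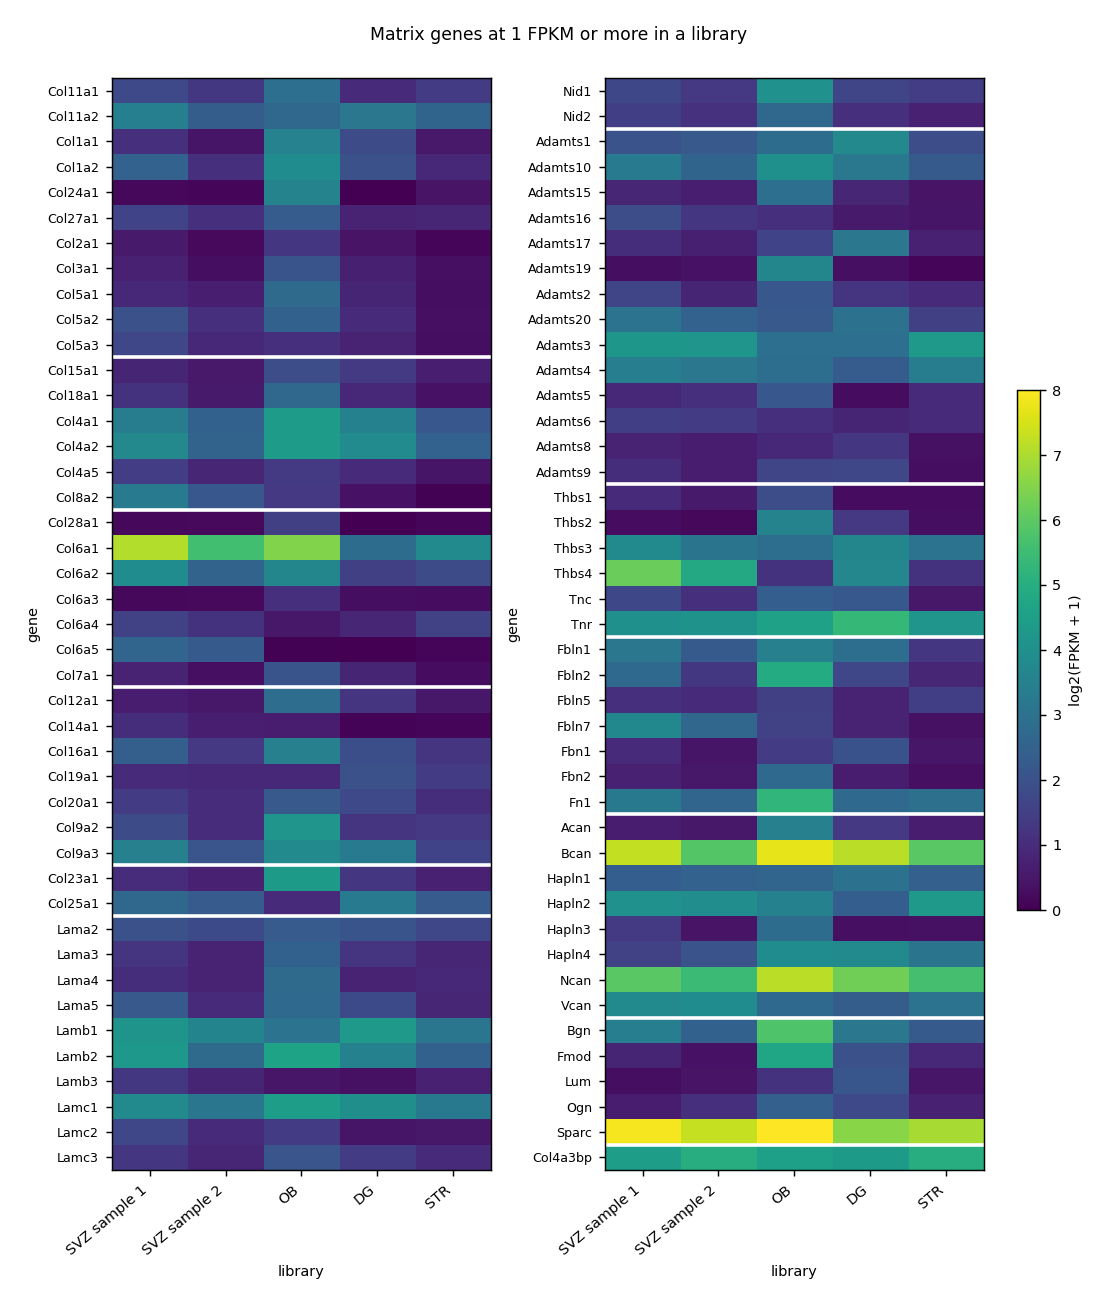
Level of the 86 matrix genes that reached 1 FPKM, as log2(FPKM + 1) by colour, with genes in rows, the 5 libraries in columns and white lines between gene classes. The OB column is the brightest in most rows, while Thbs4, Col8a2, Fbln7 and Col6a5 are brightest in the SVZ columns.

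Against STR, OB had 26 of 82 matrix genes past the size and higher (31.7%) and 0 lower. Among all coding genes tested the same way, 6.4% were higher and 2% lower. By library set the count was 16, of which 15 were among the 26, against 3.05% of coding genes. The median matrix gene was 1.51 log2 units higher in OB than in STR (0.95 by library set), and the median coding gene 0.53 (0.17 by library set). After adjustment for the GC content of transcripts the count was 11, with 9 higher and 2 lower, beside 2.25% and 3.07% of coding genes. Only 8 of the 26 were among them (Adamts19, Bgn, Col23a1, Col24a1, Fbln2, Fmod, Nid1 and Thbs2), with Ogn added as higher and Adamts3 and Hapln2 as lower. Transcripts of the detected matrix genes had a median GC content of 53.6%, against 50.4% for coding genes. Matrix genes that pass the filter through a high OB value must differ, so medians and counts over them are descriptions.

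SVZ against OB gave the reverse picture, with 17 of 84 genes lower in SVZ and 2 higher. Coding genes were lower in 3.59% and higher in 2.07%. OB against DG had 16 of 82 genes higher and 2 lower, beside 3.67% and 1.46% of coding genes. SVZ against DG had 4 of 75 higher and 2 lower, beside 2.9% and 2.12%, and 2 higher and 1 lower when SVZ sample 1 was left out. These counts share the OB, SVZ and DG libraries with each other and are given side by side only.

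The remaining contrasts with STR were smaller. SVZ had 5 of 67 genes higher (7.46%) and 0 lower, with 1.48% and 0.142% of coding genes. DG had 2 of 59 higher (3.39%) and 0 lower, with 3.42% and 2.44% of coding genes, so the share of matrix genes higher in DG was that of coding genes. Between the SVZ samples 0 of 66 genes passed the size either way, with 0.241% of coding genes higher in sample 1 and 0.603% lower. The median matrix gene was nevertheless 0.57 log2 units higher in SVZ sample 1 than in sample 2, and 74 of the 86 detected genes lay higher in sample 1, or 86%, against 72.7% of coding genes.

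**Figure D2:**
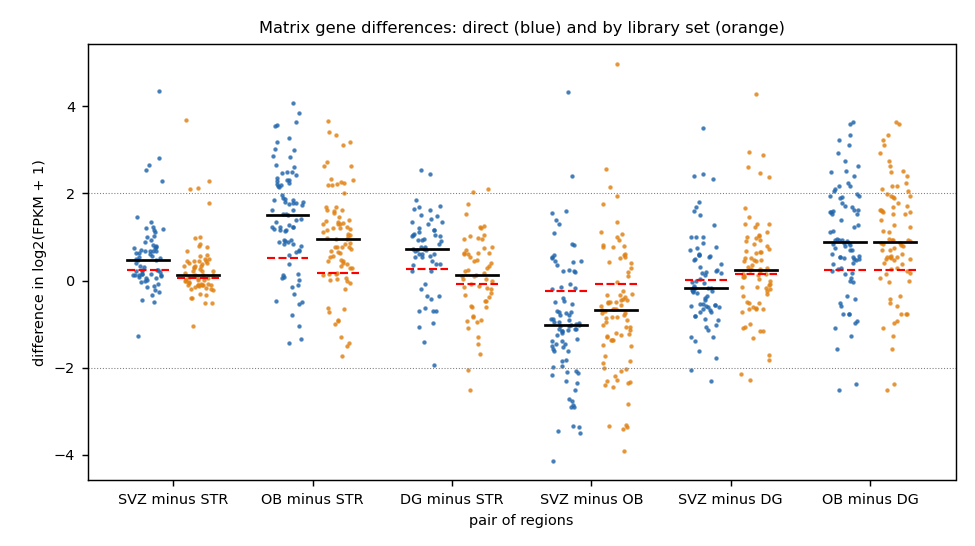
Log2 difference of each matrix gene at 1 FPKM or more in either region, for each pair of regions on the x axis, compared directly (blue) and by library set (orange). Black lines are the medians of matrix genes, red dashed lines the medians of coding genes, and dotted lines mark 2 log2 units either way; the OB minus STR median is 1.51 directly and 0.95 by library set.

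Thbs4, Fbln7, Col8a2, Col6a1 and Col6a5 were the matrix genes that stood past the size in SVZ over STR. Thbs4, a secreted thrombospondin of astrocytes, was at 70.5 and 27.7 FPKM in SVZ samples 1 and 2, 12 in DG, 1.27 in OB and 1.24 in STR. Both SVZ samples lay above every other library, with a log2 difference of 4.34 (SE 0.73) from STR and 4.32 (SE 0.73) from OB, and a limma adjusted p of 0.656 and 0.173. By library set the differences were 3.68 and 4.98. DG, at 12 FPKM, was the next highest, 2.54 (SE 0.85) above STR directly and 1.22 by library set.

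Col8a2, a short-chain network collagen best known from Descemet's membrane of the cornea, was at 8.7 and 3.51 FPKM in the SVZ pair, 1.51 in OB, 0.304 in DG and 0.0434 in STR. The difference from STR was 2.66 (SE 0.6), and 2.11 by library set. Fbln7, a fibulin that binds cells and other matrix proteins, was at 12.2 and 5.25 FPKM in the SVZ pair, 2 in OB, 0.729 in DG and 0.285 in STR, a difference of 2.82 (SE 0.61) from STR, and 2.28 by library set. For both genes the SVZ samples lay above every other library. Over DG the differences were 2.34 (SE 0.6) for Col8a2 and 2.39 (SE 0.61) for Fbln7, and 1.79 and 1.85, inside the size, without SVZ sample 1.

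Collagen VI forms beaded microfilaments, and its Col6a1 and Col6a5 chains completed the group. Col6a1 was at 135 and 46.8 FPKM in the SVZ pair, 87.7 in OB, 13 in STR and 6.09 in DG. The OB value lay between the SVZ samples, and STR and DG lay below all of them. The difference of SVZ from STR was 2.53 (SE 0.81) and 1.77, inside the size, when SVZ sample 1 was left out, which is also the value by library set. Col6a5 was at 5.1 and 3.83 FPKM in the SVZ pair, 0.113 in STR, 0.0319 in OB and listed at 0 in DG. It was the only matrix gene with every SVZ library 2 log2 units or more above all others, which 0.314% of coding genes were. The smallest gap was 2.12.

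The bases upstream of these 5 genes are shown because they were the set past the size in SVZ over STR. Each line gives the 250 bases before the RefSeq start site on build GRCm38.p6, 5′ to 3′ on the gene's strand, with matches to the motifs searched in capitals.
Thbs4 (chr13:92794819-92795068, minus strand): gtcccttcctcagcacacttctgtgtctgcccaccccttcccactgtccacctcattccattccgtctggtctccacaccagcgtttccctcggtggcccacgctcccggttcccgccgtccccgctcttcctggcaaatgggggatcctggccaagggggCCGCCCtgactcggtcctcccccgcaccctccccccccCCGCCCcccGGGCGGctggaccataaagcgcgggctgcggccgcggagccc
Fbln7 (chr2:128863682-128863931, plus strand): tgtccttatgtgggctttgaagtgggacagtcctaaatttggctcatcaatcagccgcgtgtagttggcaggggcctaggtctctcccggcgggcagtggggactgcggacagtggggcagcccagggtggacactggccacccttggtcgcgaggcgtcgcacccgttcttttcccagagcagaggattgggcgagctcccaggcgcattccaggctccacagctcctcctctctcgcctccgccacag
Col8a2 (chr4:126286544-126286793, plus strand): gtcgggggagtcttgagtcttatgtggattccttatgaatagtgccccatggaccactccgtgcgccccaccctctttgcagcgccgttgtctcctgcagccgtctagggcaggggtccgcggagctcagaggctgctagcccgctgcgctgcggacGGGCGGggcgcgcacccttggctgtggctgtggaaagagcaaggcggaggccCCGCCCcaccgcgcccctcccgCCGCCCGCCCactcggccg
Col6a1 (chr10:76726045-76726294, minus strand): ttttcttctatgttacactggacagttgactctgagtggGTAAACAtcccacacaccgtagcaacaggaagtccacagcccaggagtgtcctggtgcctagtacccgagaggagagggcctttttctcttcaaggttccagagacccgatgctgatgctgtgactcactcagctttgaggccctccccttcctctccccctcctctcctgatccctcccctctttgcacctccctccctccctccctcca
Col6a5 (chr9:105960644-105960893, minus strand): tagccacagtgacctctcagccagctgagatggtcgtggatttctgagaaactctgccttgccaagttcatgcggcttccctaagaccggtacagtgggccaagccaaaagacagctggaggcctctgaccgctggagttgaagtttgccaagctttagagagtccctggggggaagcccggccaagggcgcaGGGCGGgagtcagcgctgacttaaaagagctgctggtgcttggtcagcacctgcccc

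The motifs were the GC box GGGCGG, the X-box half-site GTTGCC, the forkhead motif GTAAACA and the TATA box TATAAA, on both strands. Thbs4 held 3 GC boxes, Col8a2 held 4 (a pair of them overlapping) and Col6a5 held 1. Col6a1 held 1 forkhead motif, and Fbln7 none of the 4 motifs. Among 32851 RefSeq promoter windows of the same length, 32.7% held a GC box, 10.4% the X-box half-site, 3.17% the forkhead motif and 12.4% the TATA box. The GC content of the windows was 70.8% for Thbs4, 70% for Col8a2, 63.2% for Fbln7, 58.8% for Col6a5 and 56% for Col6a1, with a median of 52.4% over all windows.

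Ependymal markers were also higher in SVZ over STR, where 6 of 7 were past the size, directly and by library set. Among coding genes 1.48% were, and 0.934% by library set. Their summed level was 285 and 120 FPKM in the SVZ pair, 19.3 in OB, 15.4 in DG and 3.78 in STR. Col6a1 differed from them in OB, where its level lay between the SVZ samples. Tmem212 was listed at 0 in STR and Dynlrb2 in DG. Choroid plexus markers summed to 34.6 and 33 FPKM in the SVZ pair, 54 in OB (50.7 of it Aqp1), 22.4 in DG and 12.6 in STR, with Kcne2 and Aqp1 listed at 0 in DG, and 0 of 8 were past the size in SVZ over STR. Their part in the result was not tested.

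The fibrillar collagens, the rope-like collagens of connective tissue, were highest in OB for 9 of 11 chains. In OB over STR 5 of the 11 were past the size (Col1a1, Col1a2, Col5a1, Col5a2 and Col24a1), 3 of them also by library set (Col1a1, Col5a1 and Col24a1). Among coding genes 6.4% were higher by that size, and 3.05% by library set. Col1a1 was at 10.7 FPKM in OB, 2.59 in DG, 1.17 and 0.363 in the SVZ samples and 0.457 in STR. Its partner chain Col1a2 was at 13.8 FPKM in OB, 4.74 and 1.16 in the SVZ samples, 2.99 in DG and 0.838 in STR. Both chains were highest in OB, which has 1 library and was the highest region for 48.2% of detected coding genes. Col24a1, a fibrillar collagen of developing bone, was at 11 FPKM in OB, at most at 0.336 elsewhere and listed at 0 in DG. OB was 3.17 (SE 0.27) above STR, and 3.10 by library set. Col11a2 departed from the class: it was at 9.86 FPKM in SVZ sample 1, 8.07 in DG and 4.13 to 5.31 in the remaining libraries, and the SVZ samples spanned all other values.

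Type IV collagen, the network collagen of every basement membrane, was led in all libraries by its Col4a1 and Col4a2 chains. Col4a2 was at 20 FPKM in OB, 13.5 in DG, 12.5 and 4.82 in the SVZ samples and 4.69 in STR. Col4a1 was at 19.8 FPKM in OB, 10.5 in DG, 9.38 and 4.59 in the SVZ samples and 3.53 in STR. The SVZ samples reached from near the STR value to near the DG value in both genes, so SVZ did not stand apart from either beyond its own spread. The ratio of Col4a1 to Col4a2 was 0.749 to 0.99 over the 5 libraries. These genes lie head to head on chromosome 8, 2 bases apart in the deposited mm9 coordinates (chr8:11187755-11312826 and chr8:11312829-11449287), an arrangement known for sharing a promoter. Col4a5 was at 0.38 to 1.75 FPKM, and Col4a3, Col4a4 and Col4a6 stayed below 1 FPKM in every library. Col18a1, the source of endostatin, was at 5.44 FPKM in OB and at 0.322 to 1.27 elsewhere.

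Among microfibrillar collagens Col6a2 followed Col6a1 at a lower level. It was at 13.7 and 4.83 FPKM in the SVZ pair, 11.8 in OB, 2.65 in STR and 1.85 in DG. The ratio of Col6a1 to Col6a2 was 9.86 and 9.68 in the SVZ samples, 7.43 in OB, 4.92 in STR and 3.3 in DG. Col6a3, the long chain that completes the usual collagen VI trimer, was at 1.17 FPKM in OB and at 0.121 to 0.227 in the other 4 libraries. Col6a4 was at 1.97 FPKM in STR, 1.9 and 1.24 in the SVZ samples, 0.822 in DG and 0.438 in OB.

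The collagens that sit on other fibrils (FACIT collagens) were highest in OB for 6 of 9 chains. Those that span the membrane were highest in OB for 2 of 4 chains, Col23a1 and Col13a1. Col9a1 and Col13a1, both counted for OB, stayed below 1 FPKM in every library. OB was the highest region for 48.2% of detected coding genes. In OB over STR 4 of 9 FACIT chains were past the size (Col9a2, Col9a3, Col12a1 and Col16a1). By library set 2 of them were (Col9a2 and Col12a1), with Col9a3 at 0.83 and Col16a1 at 1.18. Of 4 transmembrane chains 1 was past the size both ways (Col23a1). The shares of coding genes were 6.4% directly and 3.05% by library set. Col9a2 was at 17 FPKM in OB and at 1.04 to 2.66 elsewhere. Col23a1 was at 19.6 FPKM in OB and at 0.65 to 1.4 elsewhere, 3.64 (SE 0.4) above STR and 3.33 by library set. Col25a1, a neuronal membrane collagen found in amyloid plaques, went the other way: it was at 8.94 FPKM in DG, 5.53 and 3.93 in the SVZ samples, 3.88 in STR and 0.929 in OB. Its difference of OB from DG was -2.37 (SE 0.48).

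**Figure D3:**
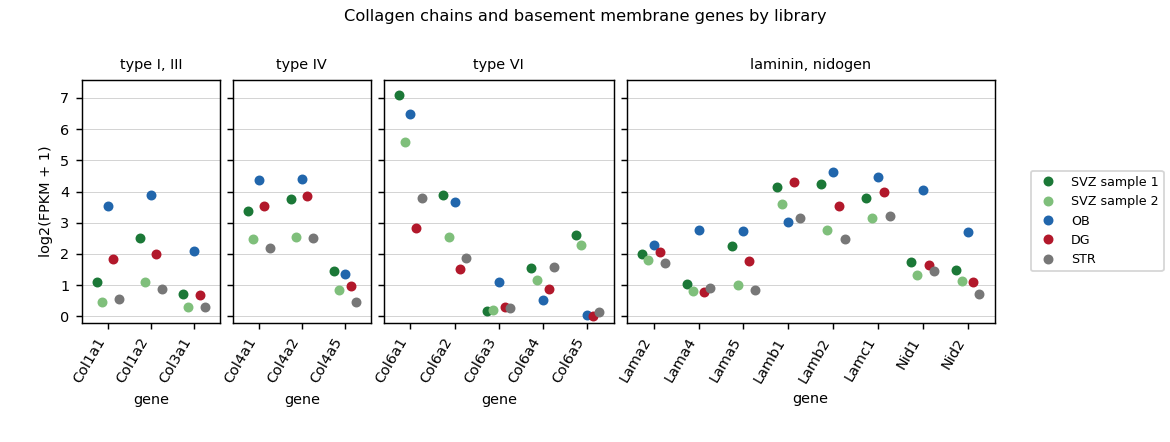
Levels of collagen chains of types I, III, IV and VI and of laminin and nidogen genes, as log2(FPKM + 1), with 1 point for each library. OB is the top point for types I and III and for Nid1 and Nid2, SVZ sample 1 for Col6a1 and Col6a2, and DG for Lamb1.

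Laminins are trimers of an alpha, a beta and a gamma chain, and nidogens tie them to collagen IV. OB was the highest region for 11 of the 13 genes of this class, among them Lama1, which stayed below 1 FPKM in every library. For detected coding genes that share was 48.2%. Over STR 2 genes of the class (Lamb2 and Nid1) were past the size, of which Nid1 was also past it by library set. Coding genes were higher by that size in 6.4%, and in 3.05% by library set. Lamc1, the gamma chain of most laminins, was at 20.9 FPKM in OB, 14.9 in DG, 12.8 and 7.81 in the SVZ samples and 8.39 in STR. STR lay between the SVZ samples. The beta chains differed in their order. Lamb2 was at 23.9 FPKM in OB, 18.1 and 5.79 in the SVZ samples, 10.5 in DG and 4.63 in STR. Lamb1 was at 18.9 FPKM in DG, 16.7 and 11.1 in the SVZ samples, 7.8 in STR and 7.2 in OB and a difference of OB from DG of -1.28 (SE 0.54). The ratio of Lamb2 to Lamb1 was 3.32 in OB, 1.08 and 0.521 in the SVZ samples, 0.557 in DG and 0.593 in STR.

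The alpha chains decide which receptors a laminin meets. Lama2, a chain of vessel-associated laminins, was at 2.25 to 3.9 FPKM in all 5 libraries. Lama4, a chain made by endothelial cells, was at 5.82 FPKM in OB and at 0.72 to 1.05 elsewhere. Lama5 was at 5.7 FPKM in OB, 3.74 and 0.994 in the SVZ samples, 2.46 in DG and 0.814 in STR. Nid1 was at 15.6 FPKM in OB and at 1.52 to 2.33 elsewhere, a difference of 2.61 (SE 0.46) from STR, and 2.20 by library set. Nid2, whose locus overlaps another gene, was at 5.49 FPKM in OB and at 0.659 to 1.79 elsewhere. As for Lamc1, STR lay between the SVZ samples for Lama4 and Nid1.

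Fibulins, fibrillins and fibronectin link elastic fibres and cell surfaces, and 4 of 7 were past the size in OB over STR (Fbln1, Fbln2, Fbn2 and Fn1). By library set 2 of them were (Fbln2 and Fbn2), with Fbln1 at 1.35 and Fn1 at 1.68. Coding genes were higher by that size in 6.4%, and in 3.05% by library set. Fbln2 was at 29.6 FPKM in OB, 5.68 and 1.46 in the SVZ samples, 2.25 in DG and 0.808 in STR. The difference of OB from STR was 4.08 (SE 0.89), and 2.64 by library set. Fn1, the main adhesive glycoprotein of plasma and tissue, was at 37.1 FPKM in OB and at 5.09 to 8.38 in the other 4 libraries. For both genes the OB library was the highest, as OB was for 48.2% of detected coding genes. Fbn1 was higher in DG, at 3.01 FPKM, than in OB, at 1.68, while Fbn2 was at 5.69 in OB and at 0.246 to 0.673 elsewhere.

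Small leucine-rich proteoglycans coat collagen fibrils. Bgn (biglycan) was at 54.8 FPKM in OB, 9.63 and 4.64 in the SVZ samples, 8.08 in DG and 3.81 in STR, with OB 3.54 (SE 0.67) above STR and 2.62 by library set. Fmod (fibromodulin) was at 25.7 FPKM in OB, 2.96 in DG, 0.87 in STR and 0.774 and 0.306 in the SVZ samples. Its difference of SVZ from OB, -4.13 (SE 0.39), was the most negative of any matrix gene in that pair, and -3.91 by library set. Lum (lumican) was highest in DG, at 3.41 FPKM, with 1.24 in OB and 0.238 to 0.408 elsewhere. Ogn was at 4.51 FPKM in OB and at 0.531 to 2.39 elsewhere, but its deposited locus spans 4 other genes (Aspn, Cenpp, Ecm2 and Omd) and the value is uncertain. Sparc, a collagen-binding glycoprotein of vessels and glia, was the most abundant matrix gene in all libraries but DG, at 313 FPKM in OB, 234 and 155 in the SVZ samples, 122 in STR and 94.8 in DG.

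In 13 matrix genes the OB library lay 2 log2 units or more above every other library: Adamts19, Col24a1, Col23a1, Fmod, Bgn, Nid1, Col9a2, Thbs2, Fbln2, Acan, Adamts15, Fn1 and Fbn2. Of coding genes 1.48% did so. No matrix gene stood so in DG or STR, where 0.684% and 0.0214% of coding genes did. Fbn2 and Fn1 were the members nearest the limit, with smallest gaps of 2.00 and 2.02. Against DG, Acan, Adamts15, Fbn2 and Thbs2 came inside the size under median ratio scaling and under GC adjustment. Thbs2, a thrombospondin that inhibits vessel growth, was at 10.9 FPKM in OB, 1.53 in DG and 0.121 to 0.234 elsewhere.

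**Figure D4:**
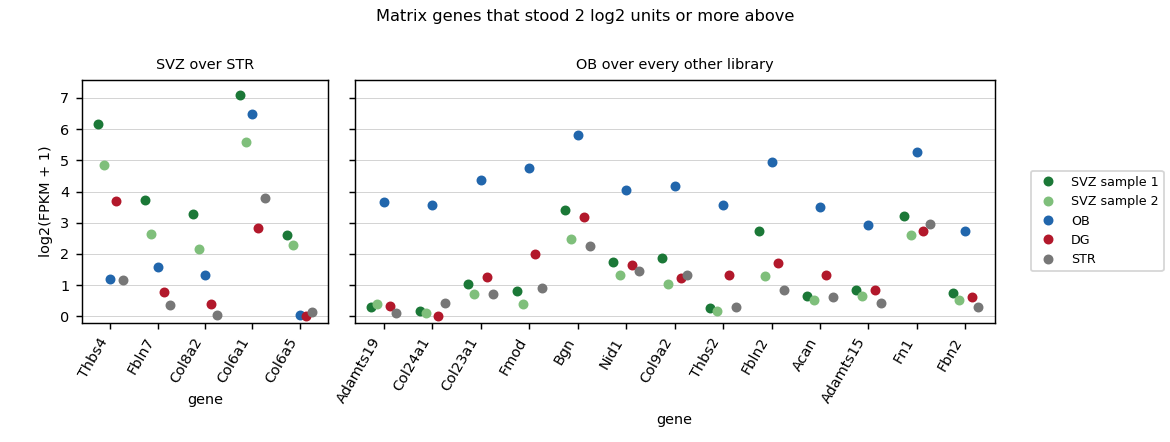
Levels as log2(FPKM + 1), 1 point for each library, of the 5 genes past 2 log2 units in SVZ over STR (left) and of the 13 genes in which OB lay 2 log2 units or more above every other library (right). In the left panel the SVZ points are highest except for Col6a1, where OB lies between them; in the right panel OB is highest for each gene.

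Markers of the coverings and nerve of the bulb were also high in the OB library. Of 10 meningeal fibroblast markers 8 were past the size over STR (7 by library set) and 6 over DG. Among coding genes 6.4% were higher by that size over STR, 3.05% by library set, and 3.67% over DG. They summed to 2400 FPKM in OB (2178 of it Ptgds), 305 in DG, 239 in STR and 159 and 184 in the SVZ samples, and none was listed at 0. Of 7 ensheathing glia and olfactory nerve markers found, 4 were past the size over STR, directly and by library set. Their sum was 915 FPKM in OB (409 of it S100a5, 250 Npy and 187 Omp) and 70.7 to 113 elsewhere, of which Npy made up 69 to 111. S100a5 was listed at 0 in the other 4 libraries and Mybpc1 in DG. Sostdc1 was lower in OB, at 0.418 FPKM, than in the SVZ samples and DG, at 0.895 to 1.08. Prss56 of that list was not found in the table. Endothelial markers summed to 171 FPKM in OB (70.8 of it Cldn5) and 61.3 to 106 elsewhere. Mural cell markers summed to 193 FPKM in OB (144 of it Vtn) and 72.5 to 122 elsewhere. The median difference of OB from STR was 0.27 log2 units for endothelial markers and 0.10 for mural cell markers, and -0.02 and -0.39 by library set. The median coding gene was at 0.53, and 0.17 by library set. Within each of these vascular lists 1 of 8 genes was past the size over STR directly (Cldn5 and Vtn). By library set 0 of 8 were in either list, with Cldn5 at 1.37 and Vtn at 1.63. Their part in the OB result was not tested.

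Lecticans bind hyaluronan, and link proteins fix that bond. Bcan (brevican) and Ncan (neurocan) were abundant in every region. Bcan was at 208 FPKM in OB, 152 and 57.3 in the SVZ samples, 142 in DG and 60.7 in STR. SVZ sample 2 lay below STR and SVZ sample 1 above DG, so SVZ could not be ordered against either. Ncan was at 142 FPKM in OB, 75.2 in DG, 60.9 and 42.5 in the SVZ samples and 48.6 in STR. Acan (aggrecan), the lectican most tied to perineuronal nets, was at 10.3 FPKM in OB, 1.49 in DG and 0.426 to 0.574 elsewhere, 2.86 (SE 0.34) above STR and 2.72 by library set. Vcan (versican) had another order, with 13 and 13.9 FPKM in the SVZ pair, 7.25 in STR, 5.71 in OB and 4.08 in DG. The SVZ samples lay above all other libraries for Vcan, 0.80 (SE 0.4) over STR directly and 0.85 by library set, which is inside the size. Its locus overlaps Xrcc4.

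Each lectican gene lies beside a link protein gene. No pair of neighbours shared the full order of regions, but Ncan with Hapln4 and Acan with Hapln3 were highest in OB. Ncan and Hapln4 differed only in the order of SVZ and STR. Hapln2, the link protein of nodes of Ranvier, was at 19.1 FPKM in STR, 15.5 and 14.3 in the SVZ samples, 10.5 in OB and 4.23 in DG, and its neighbour Bcan was lowest in SVZ sample 2 and STR. The gap between them is 21.4 kb. Hapln4, a perineuronal net link protein 2.22 kb from Ncan, was at 13.9 FPKM in OB, 13.3 in DG, 7.37 in STR and 1.93 and 3.09 in the SVZ samples. Both SVZ samples lay below all other libraries, and the difference of SVZ was -1.27 (SE 0.45) from STR, -2.10 (SE 0.45) from OB and -2.04 (SE 0.45) from DG. By library set these were -1.04, -2.34 and -2.28. Without SVZ sample 1, and with GC adjustment, the differences from OB and DG both came inside the size (-1.81 from DG without that sample), and median ratio scaling brought that from OB inside it. Hapln3 and Acan, 1.93 kb apart, were both highest in OB, Hapln3 at 6.16 FPKM against 0.263 to 1.57 elsewhere. Hapln1, 43.5 kb from Vcan, was at 4.19 to 7.13 FPKM with DG highest. The ratio of Hapln1 to Vcan was 1.75 in DG, 0.893 in OB, 0.615 in STR and 0.324 and 0.34 in the SVZ samples.

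**Figure D5:**
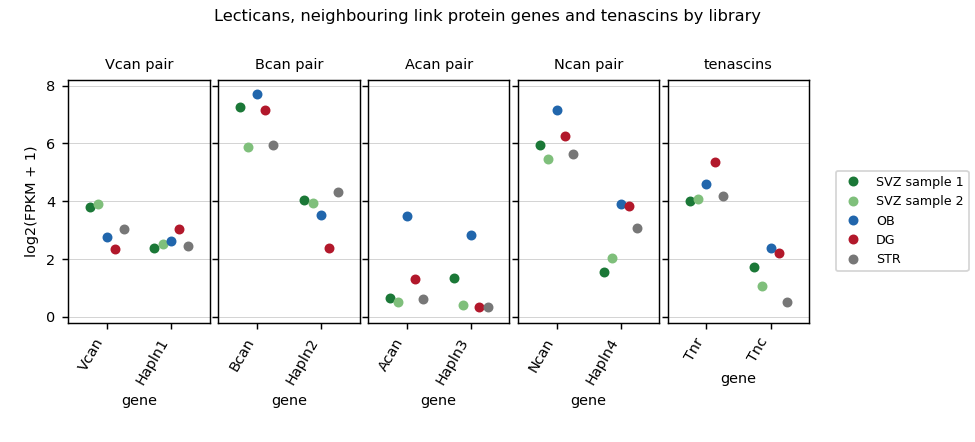
Levels of the 4 lecticans, their neighbouring link protein genes and the tenascins Tnr and Tnc as log2(FPKM + 1), with 1 point for each library. Within the Ncan pair SVZ is lowest for Hapln4, and within the Vcan pair the SVZ points are highest for Vcan while DG is highest for Hapln1.

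Tenascin-R, the tenascin of perineuronal nets, had its highest level in DG. Tnr was at 39.6 FPKM in DG, 22.9 in OB, 17.1 in STR and 15.2 and 15.8 in the SVZ samples. DG stood 1.16 (SE 0.44) above STR, and 1.21 by library set, inside the size. Tnc, a tenascin of neural stem cell niches and astrocytes, was at 4.23 FPKM in OB, 3.65 in DG, 2.33 and 1.12 in the SVZ samples and 0.438 in STR. STR was lowest for Tnc in these libraries. Tnn stayed below 1 FPKM in every library.

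The 19 Adamts genes encode secreted metalloproteases that cut procollagens, lecticans or fibrillin partners. Of the 19, 8 were highest in OB, 6 in DG, 3 in SVZ and 2 in STR. Only 14 of them reached 1 FPKM in a library. The order of the rest, with Adamts7, Adamts12 and Adamts13 counted for OB, is uncertain. OB was the highest region for 48.2% of detected coding genes. In OB over STR 2 were past the size (Adamts15 and Adamts19), beside 6.4% of coding genes. Adamts19 was at 11.8 FPKM in OB and at 0.074 to 0.315 elsewhere, 3.57 (SE 0.29) above STR and 3.67 by library set. Adamts15, which can cut lecticans, was at 6.59 FPKM in OB and at 0.337 to 0.815 elsewhere.

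In DG over STR Adamts17 joined Thbs4 past the size directly. By library set Thbs4 came inside it, at 1.22. Adamts17 and Adamts1 (2.04, and 1.86 directly) were then past the size and higher. Col6a1 (-2.50, and -0.98 directly) and Hapln2 (-2.06, and -1.94 directly) were past it and lower. Coding genes by library set were higher in 1.79% and lower in 2.22%. Adamts17, a relative of the proteases that act on fibrillin fibres, was at 8.09 FPKM in DG, 2.08 in OB and 0.635 to 1.06 elsewhere. DG was 2.44 (SE 0.39) above STR, 2.11 by library set and 1.94, inside the size, after adjustment for GC content. Adamts1, a protease of versican and aggrecan, was at 12.5 FPKM in DG, 6.14 in OB, 3.14 and 3.7 in the SVZ samples and 2.72 in STR. Adamts3, a procollagen propeptidase that also activates Vegfc, was high outside OB and DG: it was at 19.2 FPKM in STR, 17.9 and 17.2 in the SVZ samples, 6.65 in DG and 6.5 in OB. The difference from STR was -1.43 (SE 0.45) in OB and -1.40 (SE 0.45) in DG, and -1.49 and -1.46 by library set. Adamts4, an aggrecanase, was at 9.73 and 8.09 FPKM in the SVZ pair, 9.36 in STR, 6.37 in OB and 3.99 in DG.

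The receptors and enzymes that act on the matrix were counted in the same way. Coding genes past the size in OB over STR were 6.4% higher and 2% lower, and 3.05% and 1.53% by library set. For DG over STR the shares were 3.42% and 2.44%, and 1.79% and 2.22% by library set. For SVZ over STR 1.48% were higher. Of 27 integrin subunits, 1 was past the size and higher in OB over STR (Itga7) and 0 in SVZ over STR. In DG over STR 2 were higher (Itga7 and Itga8) and 2 lower (Itga5 and Itga9). By library set Itga5 was also lower in OB over STR, at -2.14, and Itgb4 in DG over STR, at -2.26. Itgb1, the partner of most matrix-binding integrins, was at 25 to 28.9 FPKM in 4 libraries and at 17.6 in DG. Itga7, a laminin receptor, was at 32.2 FPKM in DG, 13.9 in OB and 1.14 to 1.53 elsewhere. Dystroglycan (Dag1), the collagen receptors Ddr1 and Ddr2 and the hyaluronan receptor Cd44 had 0 of 4 past the size in each of the 6 pairs. Of 14 collagen-processing genes 4 were higher in OB over STR (P4ha3, Serpinh1, Bmp1 and Pcolce), and 0 by library set. In DG over STR 2 were higher (Bmp1 and Plod2), and 0 by library set. Bmp1 was at 57.5 FPKM in DG and 45 in OB. Serpinh1, the collagen chaperone, was at 50.3 FPKM in OB, 43.2 and 16.3 in the SVZ samples, 16.7 in DG and 7.03 in STR.

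Among 27 metalloproteinase and inhibitor genes 4 were higher in OB over STR (Mmp14, Mmp15, Mmp19 and Mmp24) and 0 lower. By library set 1 was higher (Mmp19) and 1 lower (Mmp17, at -2.60). In SVZ over STR 0 were past the size. Coding genes in OB over STR were 6.4% higher and 2% lower, and 3.05% and 1.53% by library set. Of 12 cell surface and basement membrane proteoglycans, 1 was higher in OB over STR (Hspg2, perlecan), at 2.41 directly and 1.62, inside the size, by library set. In DG over STR 1 was higher (Gpc4), at 3.61 and 3.24. Hspg2 was at 7.57 FPKM in OB, 2.17 and 0.839 in the SVZ samples, 1.46 in DG and 0.618 in STR. Of 7 further leucine-rich proteoglycans Prelp was higher in SVZ over STR, at 30.2 and 15.2 FPKM against 3.33, with 6.4 in OB and 8.06 in DG. Its difference was 2.38 directly and 1.90, inside the size, by library set. Dcn (decorin), also on the list of meningeal markers, was higher in OB over STR both ways (2.80 and 2.83), at 22.6 FPKM against 1.71 to 4.85 elsewhere. Epyc was at 6.05 FPKM in STR, 1.03 and 3.46 in the SVZ samples and 0.113 in OB, and it was listed at 0 in DG. Epyc was at -2.66 in OB over STR directly and -1.53, inside the size, by library set. The 3 hyaluronan synthases summed to 1.16 FPKM in DG (2 of them listed at 0) and 1.76 to 3.61 elsewhere.

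Neighbouring matrix genes were compared because several families lie in clusters. Within 100 kb of each other lay 15 pairs of the 103 genes, made of 29 genes, and 7 pairs had the same highest region. With OB highest for 66.3% of detected matrix genes, genes that are not neighbours also often share it, and no such comparison was made. Some pairs hold genes below 1 FPKM in every library (Col4a3, Col4a4, Col4a6, Col6a6 and Col9a1), whose order is uncertain. Col6a5 illustrates the difference within a cluster: its neighbours Col6a4 and Col6a6, 29.7 and 28 kb away on chromosome 9, did not share its SVZ level, and Col6a6 stayed at or below 0.0838 FPKM in all libraries.

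Matrix genes that stayed below 1 FPKM in every library numbered 17: the basement membrane chains Col4a3, Col4a4 and Col4a6, the collagens Col8a1, Col9a1, Col10a1, Col13a1, Col17a1, Col22a1 and Col6a6, Lama1, Tnn, and the proteases Adamts7, Adamts12, Adamts13, Adamts14 and Adamts18. Of these and the other members, 10 were listed at 0 in DG, 2 in STR and 0 in the remaining libraries. In such a table a 0 may stand for a failed estimate, and the depth of the libraries is unknown. Col27a1, Col10a1, Col4a3, Col7a1, Col9a3, Nid2, Vcan and Ogn overlap another gene in the deposited coordinates, and no source used here says whether reads were assigned by strand, so their values are uncertain.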

How the data were processed

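Poly(A) RNA of 5 mouse brain samples was sequenced. Per the submitters' processing notes, the tools were CASAVA, TopHat 1.2.0 and Cufflinks 1.0.0 and the genome mm9, with roles and order not given. The authors deposited FPKM values per transcript, which carry no counts, so depth is unknown and no counting interval is given. FPKM was summed over transcripts of a symbol. limma 3.58.1 (R 4.3.3; trend, empirical Bayes) was fitted to log2(FPKM + 1) of all features in 5 libraries and 4 groups, with 1 residual degree of freedom from the SVZ samples. P-values were Benjamini-Hochberg adjusted over features at 1 FPKM or more in either region, and the fit was tested on simulated data. Genes named for their level were those at 20 FPKM or more (at most 6 a class). For each pair, the 5 largest differences each way at 2 FPKM or more were taken, with both SVZ samples in the same direction. Other genes named were chosen after their values were seen. Members and lists were chosen with earlier results of these data known. GC content came from GENCODE M21 transcripts. RefSeq promoter windows matched 73 of 103 genes. Alternatives were the pseudocount, the filters, the size, scaling, transcript choice, left-out SVZ samples, library sets and GC adjustment.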

Additional observations from a re-analysis of the deposited data

How the results depend on the processing

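With a pseudocount of 0.1 FPKM the counts of matrix genes past the size were 9 in SVZ against STR, 45 in OB against STR, 13 in DG against STR, 31 in SVZ against OB, 12 in SVZ against DG and 32 in OB against DG. The shares of coding genes rose as well, to 4.08% higher in SVZ against STR, 10.9% in OB against STR, 5.88% in DG against STR, 6.49% in SVZ against DG and 6.92% in OB against DG, and to 6.07% lower in SVZ against OB. With a size of 1 log2 unit the counts, in the order of those for the pseudocount, were 14, 57, 25, 50, 20 and 41, and coding genes were higher in 7%, 30.6%, 17.5%, 7.18%, 10.6% and 14.4% and lower in 1.12%, 6.69%, 8.28%, 14.8%, 7.97% and 5.28%. By library set OB against STR had 16, all higher. DG against STR had 4, with 2 higher (Adamts17 and Adamts1) and 2 lower (Col6a1 and Hapln2). Coding genes by library set were 3.05% higher and 1.53% lower in OB against STR, and 1.79% and 2.22% in DG against STR. GC adjustment over 20 bins, chosen after seeing the data, gave 11 in OB against STR (9 higher and 2 lower), 8 of them among the 26. Leaving out an SVZ sample gave 3 (without sample 1) to 8 (without sample 2) in SVZ against DG. Without sample 1, Col8a2 stood 1.79 and Fbln7 1.85 log2 units above DG, and Hapln4 was at -1.81 from DG. Median ratio scaling moved the coding median by -0.26 in SVZ against STR, -0.51 in OB against STR, -0.26 in DG against STR, 0.25 in SVZ against OB and -0.25 in OB against DG. The OB against STR split of coding genes became 3.28% higher and 3.36% lower, and the count of matrix genes 18. The cause of these shifts was not tested. Of 59 differences named by rule, 0 changed sign under scaling, highest transcript and GC adjustment. A changed pseudocount keeps the order of libraries, and the rule took SVZ differences only with both SVZ samples in the same direction. The pseudocount and left-out samples therefore could not change a sign. For the same reason library sets could not change the sign of the 29 differences that involve SVZ. Of the 49 whose value library sets can alter, 1 changed sign (Col4a3bp in OB against STR, from -0.46 to 0.05). No paired analysis was possible because OB, DG and STR have 1 sample each. Unknown depth limits what can be said of genes below 1 FPKM.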

Other observations

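The authors' catalogue of long noncoding transcripts held 18 transcripts assigned to 12 of the matrix genes. Of these, 1 reached 1 FPKM in a library, a transcript of 227 bases at Thbs3, with 0.482 and 2.85 FPKM in SVZ samples 1 and 2, 0.565 in OB, 3.5 in STR and 0 listed in DG. Thbs3 itself was at 13.2 and 7.41 FPKM in the SVZ pair, 11.8 in DG, 6.48 in OB and 7.31 in STR. SVZ sample 2 and STR, which held the most of the noncoding transcript, were not the libraries with the most of the gene. They are also the libraries of the same library set, and an effect of the library on this short transcript was not tested. Transcripts at Vcan, Tnc, Adamts2 and the other members stayed below 1 FPKM in every library.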
